A study of Homo sapiens with 12 samples.

Results

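The genes described here are 31 enzymes and regulators of cholesterol and fatty acid synthesis, of 20307 genes in the expression table. They were taken by symbol from a list of the pathway, by a rule that uses no measured value. Earlier results of these data were known when the list was chosen. All 31 were found and passed the filter on low counts in every comparison. The study sequenced RNA from H1299 and THP-1, a pair of established human cell lines, as 12 libraries, 3 in each of 4 groups. H1299 was derived from a non-small-cell lung carcinoma, and its genotype labels read WT (called labelled control here) and DCBLD2 overexpression (labelled DCBLD2). THP-1 is a monocytic leukaemia line of WT genotype, which takes on macrophage features after PMA, a phorbol ester. The THP-1 groups had PMA for 24 h and then 48 h with material from labelled control or labelled DCBLD2 H1299 cells, and both carried the PMA treatment. The sample labels call that material supernatant while the design text speaks of co-culture, so contact between the cells cannot be told apart from medium alone. The labels name neither the construct, its promoter, nor the number of clones behind the overexpressing line.

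Cells build cholesterol from acetyl-CoA through the mevalonate or isoprenoid route to farnesyl diphosphate, which is joined to squalene, closed into lanosterol and trimmed to cholesterol. Fatty acids come from the same acetyl-CoA through malonyl-CoA, and are then elongated and desaturated. SREBP transcription factors, made as membrane-bound precursors and escorted by SCAP to the Golgi when sterols are low, switch on most of these enzymes, while INSIG proteins hold SCAP back when sterols are high. Tumour cells and macrophages both use the pathway, for membranes, for protein prenylation and for oxysterol and lipid signalling.

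Promoter windows, from 250 bases before to 50 bases after the RefSeq start (GRCh38.p14), were found for 27 of the 31 genes, all except ACAT2, FDFT1, SQLE and FASN. SREBPs act beside the factor NF-Y, whose box is CCAAT. Either strand of that box was present in 18 of the 27 windows (66.7%), against 34.6% of the 35116 windows of the whole table. The core sterol element CACCCCAC, which SREBPs bind, was present on either strand in 1 window (3.70%, SREBF2) against 2.79% of all windows, and the palindromic E-box CACGTG in 4 (14.8%) against 7.26%. These motifs do not overlap each other in their letters, and a match is a description of the letters, not a binding site. Upstream stretches are printed for 4 genes, picked to show the box among those whose level in every labelled DCBLD2 H1299 library was above labelled control libraries 2 and 3. HMGCS1, CYP51A1, DHCR7, INSIG2 and FADS2 met the same condition and had no box before the start. The 4 are the methylsterol oxidase gene MSMO1 (chr4:165327419-165327622, plus strand), the isomerase gene IDI1 (chr10:1049171-1049369, minus strand), the SREBP regulator INSIG1 (chr7:155297628-155297775, plus strand) and the sterol carrier gene STARD4 (chr5:111512591-111512785, minus strand). Each is written 5′ to 3′ along its gene, ends before the first annotated exon, and has CCAAT or its reverse complement ATTGG in capitals.
MSMO1: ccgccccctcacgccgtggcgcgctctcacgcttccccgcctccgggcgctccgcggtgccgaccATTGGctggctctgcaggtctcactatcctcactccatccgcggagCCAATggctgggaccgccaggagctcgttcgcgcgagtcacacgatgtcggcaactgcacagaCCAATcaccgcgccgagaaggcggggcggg
IDI1: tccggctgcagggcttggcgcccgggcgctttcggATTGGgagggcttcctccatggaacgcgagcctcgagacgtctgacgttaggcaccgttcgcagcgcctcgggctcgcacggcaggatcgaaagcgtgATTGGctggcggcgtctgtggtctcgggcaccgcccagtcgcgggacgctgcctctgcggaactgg
INSIG1: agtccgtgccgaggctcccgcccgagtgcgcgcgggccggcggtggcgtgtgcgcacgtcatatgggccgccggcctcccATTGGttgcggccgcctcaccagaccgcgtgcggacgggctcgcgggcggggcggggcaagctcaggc
STARD4: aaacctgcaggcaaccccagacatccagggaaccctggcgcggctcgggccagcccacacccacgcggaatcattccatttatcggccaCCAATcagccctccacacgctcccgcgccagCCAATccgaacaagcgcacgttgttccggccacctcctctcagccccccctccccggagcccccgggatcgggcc
The MSMO1 stretch holds 3 boxes, those of IDI1 and STARD4 hold 2 each, and that of INSIG1 holds 1. Of the 10 genes with a window that were higher in H1299 without labelled control replicate 1, 7 had the box, as did 11 of the 17 other genes with a window. Among the genes with a window that were higher in THP-1 it was present in 8 of 12, and among those that were lower in 2 of 6.

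Estimated counts summed to between 14578887 and 23388187 per H1299 library and between 18606739 and 26787853 per THP-1 library. DCBLD2 itself went against the H1299 labels. Its level was 247, 148 and 196 TPM (a transcript abundance scaled to gene length and library total) in the labelled control libraries and 105, 98.2 and 92.5 TPM in the labelled DCBLD2 libraries, which do not overlap (log2 fold change −1.27 ± 0.17 SE, adjusted p = 0.00284, edgeR's quasi-likelihood test). Every direction below is therefore the library group labelled DCBLD2 over the group labelled control. The carcinoma markers KRT8 and KRT18 averaged 539 and 1379 TPM in the H1299 labelled control and at most 0.524 and 1.01 TPM in either THP-1 group. KRT19 was near 0 in both lines, with 0.177 TPM on average in the H1299 labelled control. KRT7, EGFR, CAV1, CAV2, CCN1 and CCN2 were called lower in the THP-1 than in the H1299 labelled control, and TGFBR2 was not called. CAV1 and TGFBR2 averaged 282 and 20.3 TPM in the H1299 labelled control, and still 146 and 15.9 TPM in the THP-1 labelled control. Summed myeloid markers were 8658 to 10200 TPM in THP-1 and 139 to 202 TPM in H1299, nearly all of the latter from CD68, and PTPRC was at 0 there. The macrophage marker CD163 was under 1 TPM on average in both THP-1 groups. Lymphoid and endothelial markers summed to 0.603 to 4.38 TPM in H1299 and 147 to 186 TPM in THP-1, mostly PECAM1, with CD3E and MS4A1 at 0. In bulk RNA, fewer expressing cells and less RNA per cell cannot be told apart.

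One H1299 library stood apart for these genes. Labelled control replicate 1 had a summed level of 6405 TPM over the 31 genes, against 3410 and 3405 TPM in replicates 2 and 3 of its group. The labelled DCBLD2 libraries had 4447, 5681 and 5334 TPM, between those of the control group. Set against the mean of its 2 group mates, replicate 1 was at least 1.5-fold higher for 19 of the 31 genes (61.3%), against 7.12% of 11777 genes of at least 1 TPM, and only PMVK and SCAP were below their mates. The median ratio was 1.60 for the 31 genes and 1.03 for all genes. Among the 31 genes the ratio ran from 0.897 for PMVK to 3.18 for HMGCS1, a synthase of the isoprenoid route. The total count of replicate 1 and its shares of mitochondrial and ribosomal protein reads lay within the range of the other H1299 libraries. It differed in other ways. Of genes of at least 1 TPM in its group, 7.16% were at least 1.5-fold above its mates, against 1.01% to 2.23% in the other H1299 libraries. Its DCBLD2 level (247 TPM) was the highest. Lymphoid and endothelial markers summed to 4.38 TPM in it, against 0.603 to 1.48 TPM in the other H1299 libraries, with PECAM1, VWF and CDH5 highest in it. H1299 results are therefore given with and without this library, and what set it apart was not tested.

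**Figure D1:**
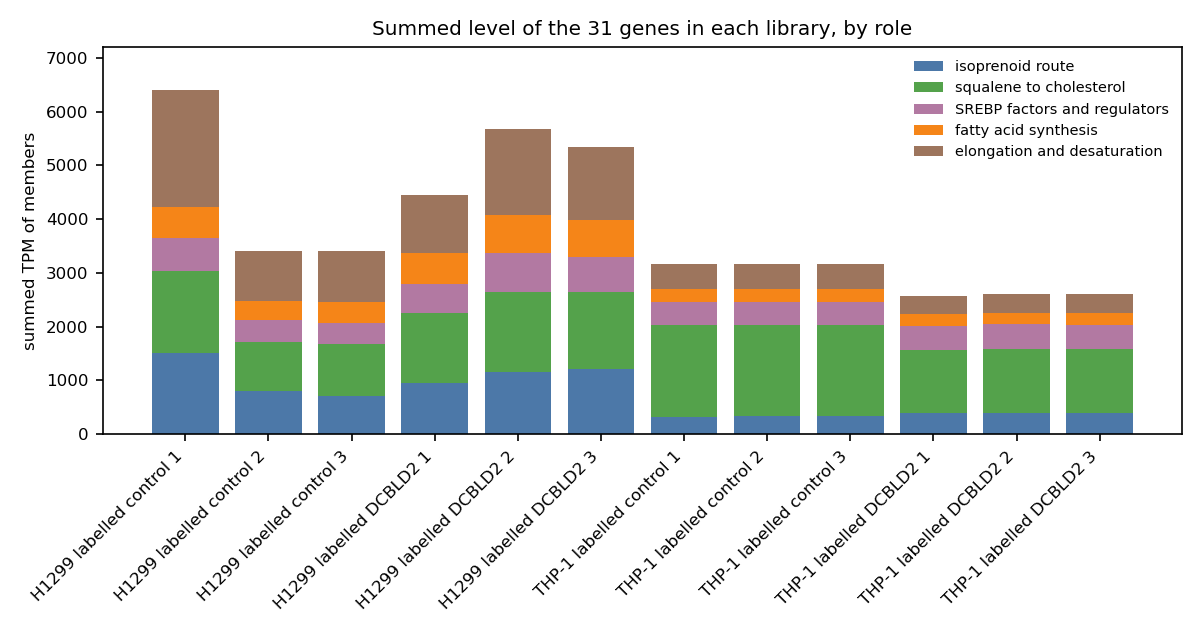
Summed TPM of the 31 genes in each of the 12 libraries (bars, stacked by role; y axis in TPM from 0). Labelled control replicate 1 of H1299 reached 6405 TPM, above every other library, while the 3 THP-1 labelled control libraries lay at 3161 to 3162 TPM and the 3 THP-1 labelled DCBLD2 libraries at 2567 to 2601 TPM.

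The H1299 and THP-1 labelled control libraries had different leading genes of the pathway. The THP-1 libraries also had PMA and H1299 material, which the labels do not give for H1299, so line and treatment cannot be told apart. Summed levels of the 31 genes were 6405, 3410 and 3405 TPM in H1299 and 3161 to 3162 TPM in THP-1, close apart from replicate 1 of H1299. In H1299 labelled control libraries the stearoyl-CoA desaturase SCD, which makes oleate, ranked first with 2037, 830.5 and 842 TPM, followed by FDPS (536 ± 263 TPM, SD, n = 3), which makes farnesyl diphosphate, and FDFT1 (422 ± 128 TPM), which joins 2 of these into squalene. In THP-1 labelled control libraries squalene epoxidase, SQLE, ranked first with 1341, 1334 and 1349 TPM, and SCD came next with 410.0, 409 and 413 TPM. SQLE, an oxygen-dependent control point of sterol synthesis, alone held 42.2% to 42.7% of the summed level of the 31 genes in those libraries, against 2.27% to 2.73% in the H1299 labelled control. In each H1299 labelled control library SCD was above FDPS, with 24.4% to 31.8% of the summed level of the 31 genes against 9.98% to 13%, whereas the shares of FDPS and FDFT1 (8.9% to 10.4%) overlapped. SQLE and SCD in THP-1 were far apart.

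SQLE was the only 1 of the 31 genes that was at least 2-fold higher in THP-1 than in H1299 labelled control libraries, by 3.93 ± 0.22 on the log2 scale (15.2-fold, adjusted p = 2.06e-07, edgeR's quasi-likelihood test). Another 15 genes were at least 2-fold lower. Of all 13892 genes tested between the lines, 55.6% passed the same rule, 27.7% higher and 28% lower, so the count of 16 genes (51.6%) is near the background while its direction is uneven. The TPM values of the groups did not overlap for 26 of the 31 genes (83.9%), against 85.6% of all genes. The median log2 fold change was −0.96 over the 31 genes and −0.03 over all genes. On the TPM scale the median of all genes itself lay at −0.34, so each TPM ratio below holds that shift.

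The largest gap in either direction with all 6 libraries was that of the elongase ELOVL6, which extends palmitate, at 19.2, 7.37 and 12.6 TPM in H1299 and 0.335, 0.444 and 0.507 TPM in THP-1 labelled control libraries (−4.34 ± 0.29, 20.3-fold lower, adjusted p = 8.43e-07). DHCR7, the last reductase before cholesterol, followed at 127, 84.2 and 83.7 against 8.01, 5.85 and 7.47 TPM (−3.58 ± 0.18, 11.9-fold lower). Mevalonate kinase, MVK, had 38.6, 22.7 and 23.1 against 3.63, 3.23 and 3.08 TPM (−2.80 ± 0.22, 6.98-fold lower). For each of these genes every THP-1 library lay below every H1299 library. Also at least 2-fold lower were LSS, HSD17B7, ACAT2, SREBF1, TM7SF2, ACACA, FDFT1, HMGCS1, FDPS, FADS2, CYP51A1 and SCD. The SREBP factors and regulators were divided. SREBF1 (−1.79) and SCAP (−0.88) were lower in THP-1, while SREBF2 (0.60), INSIG1 (0.999), INSIG2 (0.43) and STARD4 (0.72) passed the adjusted p with higher levels, each at under 2-fold. The groups of INSIG1, INSIG2 and STARD4 overlapped, and INSIG2 and STARD4 lost the call in 6 of 13 alternative analyses each. Without labelled control replicate 1, INSIG1 (1.47) and STARD4 (1.18) joined SQLE (4.26) above 2-fold and 12 genes were lower. That count of 15 stands against 56.6% of all genes called, 29.1% higher and 27.5% lower. ACLY, EBP, SC5D and MSMO1 did not pass the adjusted p with all 6 libraries.

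**Figure D2:**
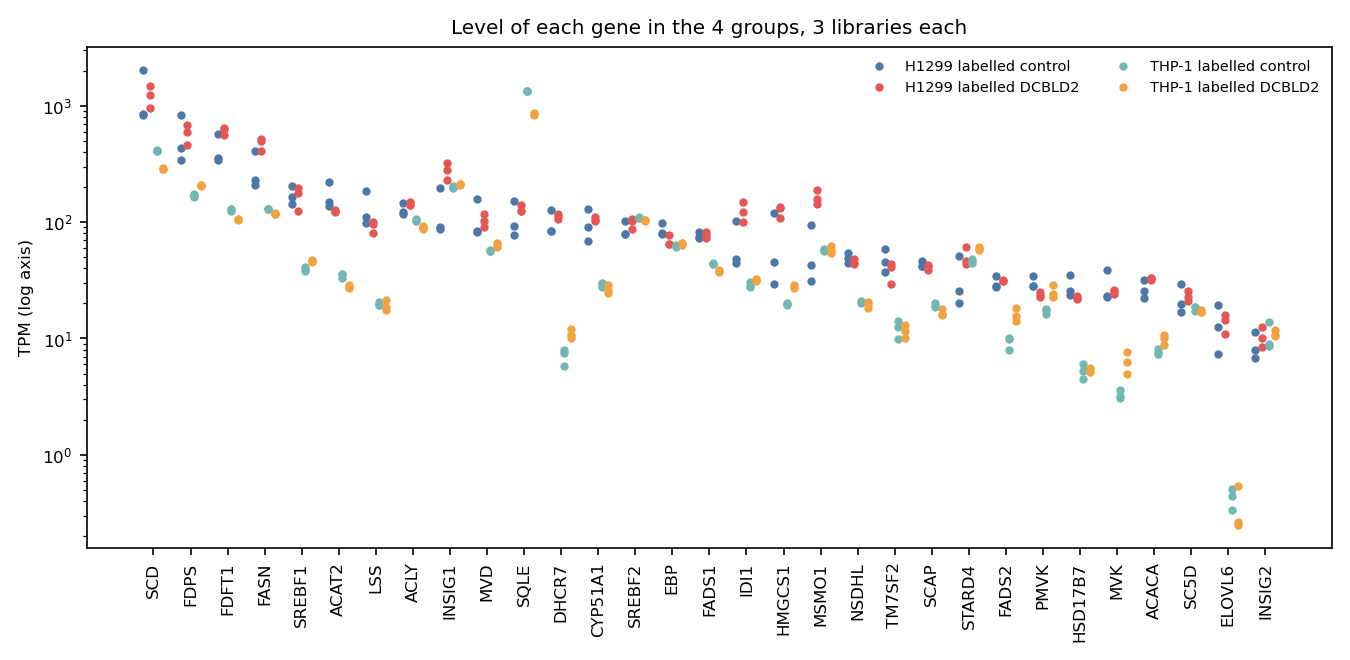
TPM of each of the 31 genes (log axis) in the 4 groups, 1 point per library, genes ordered by their mean in the H1299 labelled control. SQLE stands at 1334 to 1349 TPM in the THP-1 labelled control, and ELOVL6, DHCR7 and MVK drop furthest from H1299 to THP-1.

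Within H1299, labelled DCBLD2 against labelled control asks which genes accompany the labelled overexpression in the carcinoma cells themselves. With all 6 libraries, 4 of the 31 genes were higher (MSMO1, INSIG1, IDI1 and FASN) and 0 lower at an adjusted p under 0.05 in edgeR's quasi-likelihood test. That is 12.9% of them, against 20.9% of 12773 genes tested, of which 10.3% were higher and 10.6% lower. At an unadjusted p under 0.05 the counts were 7 higher and 5 lower (ACAT2, PMVK, LSS, HSD17B7 and EBP). DESeq2 called 4 higher and ACAT2 lower. The median log2 fold change was 0.11 over the 31 genes and 0.005 over all genes. Groups did not overlap in TPM for 7 genes (22.6%), against 37.5% of all genes: INSIG1, MSMO1 and ACACA were above the labelled control in every library, and ACAT2, PMVK, EBP and HSD17B7 below.

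MSMO1, the C4-methylsterol oxidase that works on lanosterol products (chromosome 4, 165327623 to 165343160, GRCh38), had 94.4, 31.2 and 42.4 TPM in the labelled control and 142, 188 and 157 TPM in the labelled DCBLD2 libraries. Every labelled DCBLD2 library was above the highest control, replicate 1. It rose by 1.53 ± 0.33 on the log2 scale (2.89-fold, adjusted p = 0.0138). INSIG1, which retains SCAP in the endoplasmic reticulum and is itself an SREBP target (chromosome 7, 155297776 to 155310235), had 198, 87.3 and 91.0 TPM against 230.0, 320.4 and 280 TPM. Again the groups did not overlap, with control replicate 1 closest to the other group, and the rise was 1.20 ± 0.27 (2.30-fold, adjusted p = 0.0159). Both calls were lost when labelled DCBLD2 replicate 2 was left out, with adjusted p = 0.0708 for MSMO1 and 0.0811 for INSIG1.

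IDI1, which isomerizes isopentenyl diphosphate (chromosome 10, 1039152 to 1049170), had 102, 44.4 and 48.3 TPM in the labelled control and 99.98, 148 and 123 TPM in the labelled DCBLD2 libraries. FASN, the fatty acid synthase (chromosome 17, 82078333 to 82098332), had 405, 208 and 232 against 405, 518 and 499.5 TPM. For both, control replicate 1 reached into the range of the other group while replicates 2 and 3 lay below it. IDI1 rose by 0.91 ± 0.27 (adjusted p = 0.0384) and FASN by 0.72 ± 0.22 (adjusted p = 0.0474). These 2 calls were lost without control replicate 3 or without any single labelled DCBLD2 library, and IDI1 also in DESeq2. The next genes in order were FDFT1 (0.54 ± 0.17, adjusted p = 0.0536), the sterol carrier STARD4 (0.79 ± 0.27, adjusted p = 0.0633) and ACAT2 (−0.45 ± 0.16, adjusted p = 0.07), the thiolase that opens the isoprenoid route.

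**Figure D3:**
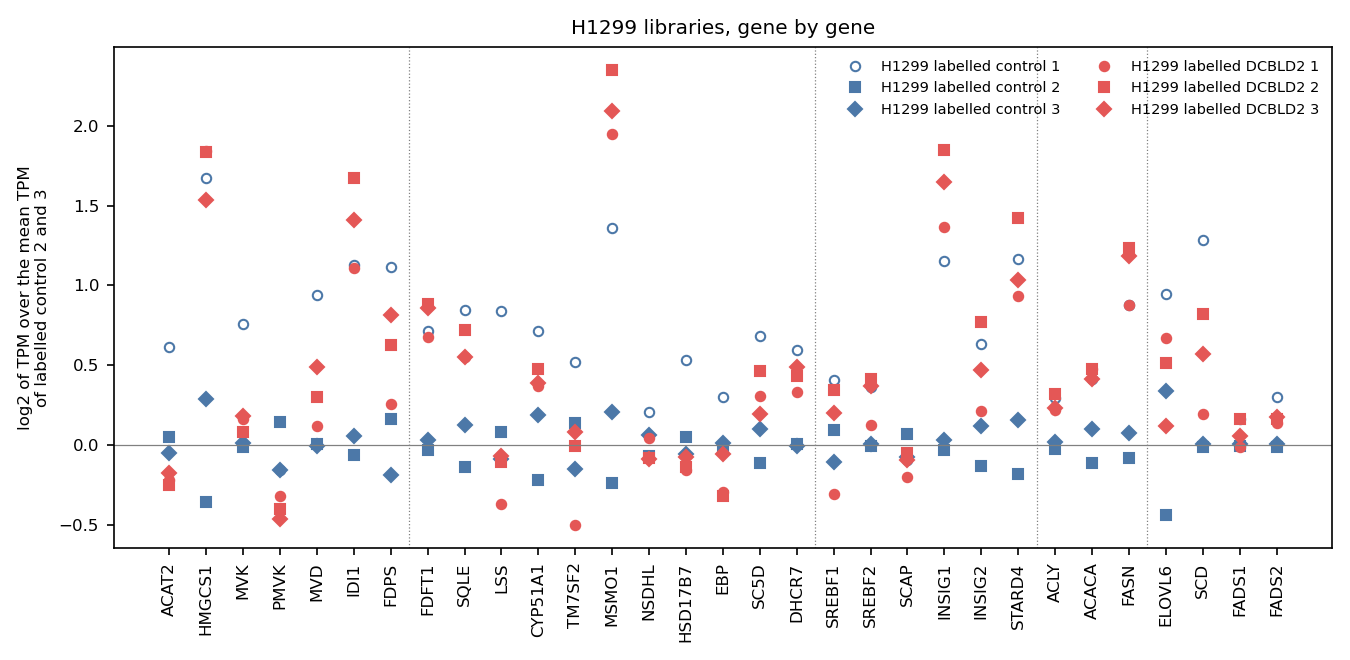
Each H1299 library's TPM for each of the 31 genes as a log2 ratio to the mean of labelled control replicates 2 and 3 (y axis); open circles are labelled control replicate 1, filled blue its group mates, red the labelled DCBLD2 libraries, and dotted lines divide the roles. The open circles lie among or above the red symbols for most genes, and below all of them for MSMO1, INSIG1 and ACACA.

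Without labelled control replicate 1, 13 of the 31 genes were higher and 0 lower, against 24.5% of 12894 genes called, 14.2% higher and 10.3% lower. PMVK was the 1 gene lower at an unadjusted p under 0.05, in edgeR and in DESeq2 alike, and DESeq2 called 14 higher. The median log2 fold change was 0.31, against 0.006 over all genes. By role, 2 of 7 genes of the isoprenoid route were higher, 6 of 11 from squalene to cholesterol, 2 of 6 factors and regulators, 2 of 3 of fatty acid synthesis and 1 of 4 of elongation and desaturation. Replicate 1 was singled out after its values were seen, and these counts describe the 5 other libraries.

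In the isoprenoid route, HMGCS1 had 119, 29.2 and 45.6 TPM in the labelled control and 134, 134 and 108 TPM in the labelled DCBLD2 libraries. Control replicate 1 thus lay inside the other group, and its mates were at most 45.6 TPM. The log2 fold change was 0.95 ± 0.39 with 6 libraries (adjusted p = 0.109) and 1.73 ± 0.16 with 5 (adjusted p = 0.000648). IDI1 reached 1.36 with 5 libraries. The kinases MVK and PMVK, the decarboxylase MVD, and FDPS were not called either way, and PMVK went lower in both (−0.36 and −0.42).

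From squalene to cholesterol, MSMO1 stood at 2.14 ± 0.14 with 5 libraries, followed by FDFT1 (0.80), SQLE (0.59), the desaturase SC5D (0.53), DHCR7 (0.42) and the lanosterol demethylase CYP51A1 (0.39). The gap between MSMO1 and FDFT1, the next in size of change among these genes, was wider than the SE of either. The cyclase LSS, the reductase TM7SF2, the C4 decarboxylase NSDHL, the ketoreductase HSD17B7 and the isomerase EBP were not called, with values from −0.24 to −0.05.

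Among the factors, SREBF2, which favours sterol genes, SREBF1, which favours fatty acid genes, SCAP and INSIG2 were not called with or without replicate 1, with values from −0.16 to 0.31 in the 5 libraries. INSIG1 stood at 1.66 ± 0.14 and STARD4 at 1.24 ± 0.16 there. The factor transcripts themselves therefore did not pass the test, which does not show that they were equal. In fatty acid synthesis, FASN reached 1.07 and the acetyl-CoA carboxylase ACACA 0.39, while the citrate lyase ACLY did not pass (0.24, adjusted p = 0.0775). SCD turned from −0.02 ± 0.31 with 6 libraries (adjusted p = 0.975) to 0.53 ± 0.16 with 5 (adjusted p = 0.0368). ELOVL6 and the polyunsaturated fatty acid desaturases FADS1 and FADS2 were not called in either.

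**Figure D4:**
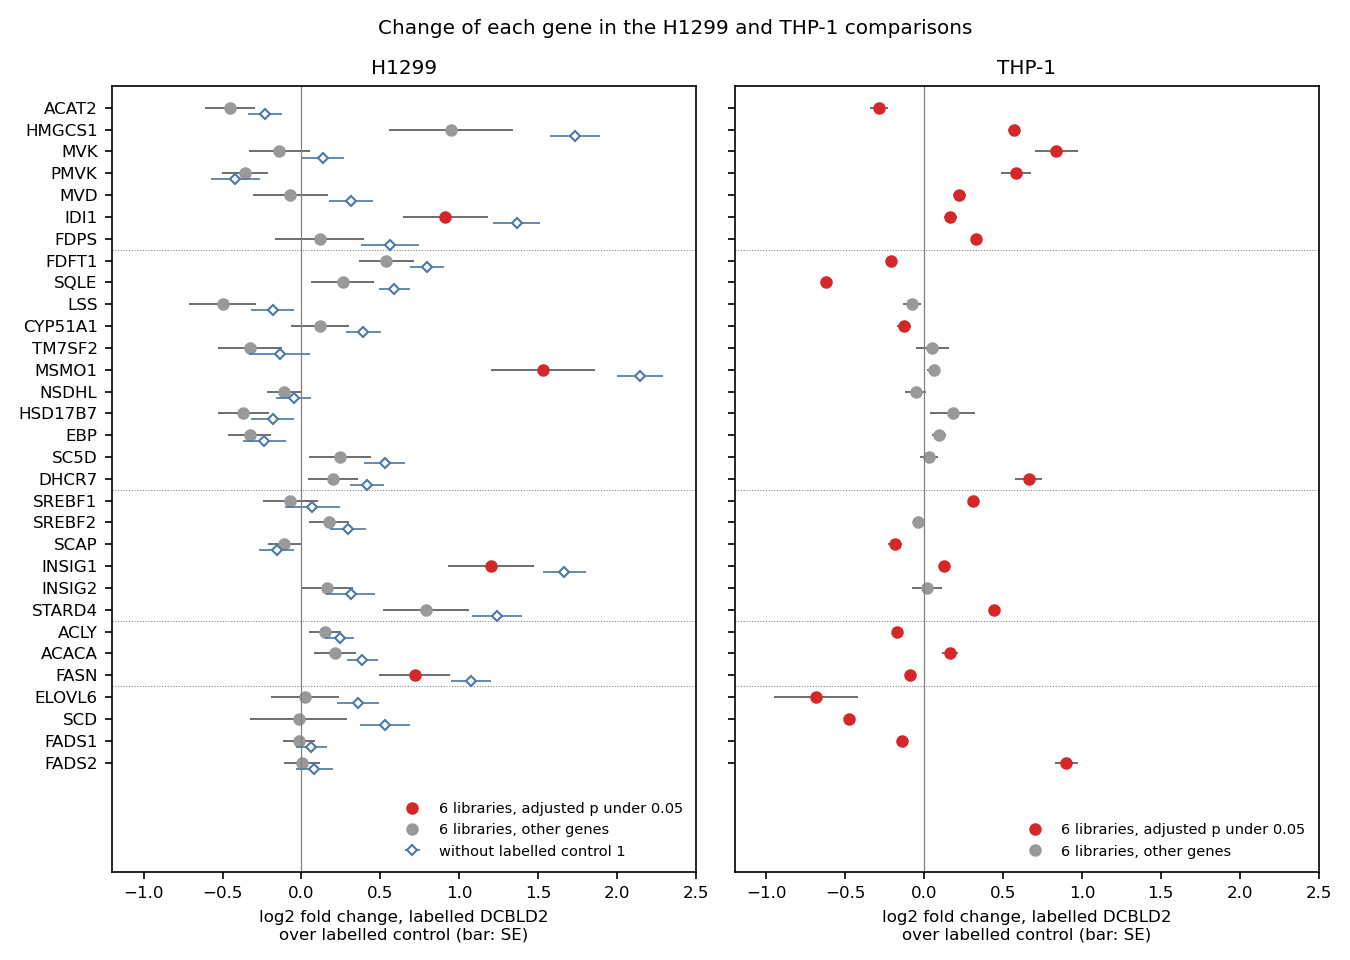
Log2 fold change (x axis, labelled DCBLD2 over labelled control; bars, SE) of each of the 31 genes in H1299 (left) and THP-1 (right); red circles passed an adjusted p under 0.05, grey did not, and open diamonds are H1299 without labelled control replicate 1. In H1299 most diamonds lie to the right of their circles, and in THP-1 the changes lie between −0.69 and 0.90.

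THP-1 cells with material from labelled DCBLD2 H1299 cells, against those with material from labelled control cells, asks what the macrophage-like cells do in response. In these libraries the pathway changed in both directions: 22 of the 31 genes passed an adjusted p under 0.05, 12 higher and 10 lower. This is 71% of them, against 68.1% of 13120 genes tested (34.5% higher and 33.6% lower), so the share is near the background. The median log2 fold change was 0.05, against 0.0005 over all genes. THP-1 replicates lay close together (median coefficient of variation 3.68% in the labelled control and 3.77% in the labelled DCBLD2 group, against 29.7%, replicate 1 included, and 10.4% in H1299), and small differences pass. With a change of at least 1.5-fold added, 5 genes remained (16.1%), MVK, FADS2 and DHCR7 higher and SQLE and ELOVL6 lower, against 21.2% of all genes, 11.3% higher and 9.92% lower. Groups did not overlap in TPM for 21 of the 31 genes (67.7%), against 64.9% of all genes. Mitochondrial reads moved with the groups, at 3.48% to 3.51% in the labelled control and 2.46% to 2.58% in the labelled DCBLD2 libraries. Reads of 86 ribosomal protein genes did too, at 3.99% to 4.02% and 5.52% to 5.82%. Summed carcinoma markers (10 genes) had 197 to 209 TPM in the labelled control and 165 to 173 TPM in the labelled DCBLD2 libraries. CAV1 held most of this sum (mean 146 and 110 TPM) and was called lower, as were EGFR and CAV2. KRT7 and TGFBR2 were called higher. KRT18, not tested, had 0.204 and 1.01 TPM on average. Summed myeloid markers had 8658 to 8707 and 10008 to 10200 TPM, with genes in both directions. CD68, ITGAM, ITGAX, ITGB2 and LAPTM5 were called lower, and CD14, CSF1R, TYROBP, FCER1G, PTPRC, SPI1, CD163 and LYZ higher. The part of these shifts in the results was not tested.

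SQLE carried the largest share of the change in level. It had 1341, 1334 and 1349 TPM in the labelled control and 836, 865 and 853 TPM in the labelled DCBLD2 libraries. The groups lay far apart, and SQLE fell by 0.62 ± 0.01 on the log2 scale (1.54-fold lower, adjusted p = 8.97e-23). SCD, second in level, fell from 410.0, 409 and 413 TPM to 284, 288 and 294 TPM (−0.47 ± 0.02, adjusted p = 3.08e-19). The summed level of the 31 genes was 3161 to 3162 TPM in the labelled control and 2567 to 2601 TPM in the other group. Without SQLE and SCD those sums were 1400 to 1419 TPM and 1447 to 1452 TPM, in the opposite order.

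The isoprenoid route was the role with most genes higher, 6 of 7, with ACAT2 lower (−0.29 ± 0.06). MVK (chromosome 12, 109573255 to 109598117) went from 3.63, 3.23 and 3.08 TPM to 4.91, 6.31 and 7.70 TPM. The groups did not overlap, though the labelled DCBLD2 libraries spread, and MVK rose by 0.84 ± 0.14 (1.79-fold, adjusted p = 7.79e-06). It shares 306 exonic bases with MMAB, a cobalamin enzyme gene on the other strand that changed likewise (0.85, 7.46 ± 0.156 to 14.8 ± 0.986 TPM, SD, n = 3). Without a stated strand setting, reads of the pair cannot be told apart. PMVK, the next kinase, went from 17.6, 16.3 and 18.01 TPM to 28.9, 22.8 and 24.2 TPM (0.58 ± 0.09), and HMGCS1 from 20.1, 19.4 and 19.6 TPM to 27.3, 28.3 and 28.7 TPM (0.57 ± 0.04). These are the genes just under the 1.5-fold line, and SQLE is the gene just above it. FDPS rose by 0.33, MVD by 0.22 and IDI1 by 0.17.

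In the steps from squalene onward, DHCR7 (chromosome 11, 71428193 to 71452868) was the 1 gene that rose, from 8.01, 5.85 and 7.47 TPM to 12.1, 10.1 and 10.7 TPM. The groups did not overlap, and the rise was 0.66 ± 0.09 (1.58-fold, adjusted p = 2.13e-07). SQLE, FDFT1 (−0.21 ± 0.03) and CYP51A1 (−0.12 ± 0.04, groups overlapping) fell. The 7 other genes, MSMO1 among them at 0.06 ± 0.04 (adjusted p = 0.223), were not called, with values from −0.08 to 0.18. FDFT1 and SQLE, the enzymes on either side of squalene, thus both had lower levels while HMGCS1 and FDPS upstream had higher ones.

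The regulators STARD4 (0.44 ± 0.03), SREBF1 (0.31 ± 0.03) and INSIG1 (0.13 ± 0.02) rose, and SCAP fell by 0.19 ± 0.05. STARD4 went from 48.4, 46.0 and 44.3 TPM to 57.8, 59.3 and 61.3 TPM, and INSIG1 from 205, 198.5 and 198 TPM to 209, 211 and 213 TPM, a small step between tight groups. SREBF2 and INSIG2 were not called. SREBF1 shares 556 exonic bases with RAI1 on the other strand, which went lower in THP-1 (−0.55), so the 2 moved in opposite directions. In fatty acid synthesis ACACA rose by 0.16 ± 0.05 while ACLY (−0.17 ± 0.02) and FASN (−0.09 ± 0.02) fell.

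FADS2, the delta-6 desaturase that opens polyunsaturated fatty acid synthesis (chromosome 11, 61792980 to 61867354), had the largest rise of the 31 genes in THP-1. It went from 10.04, 7.93 and 9.84 TPM to 18.2, 15.6 and 14.03 TPM, with no overlap (0.90 ± 0.08, 1.87-fold, adjusted p = 6.01e-11). Its neighbour FADS1, the delta-5 desaturase, fell by 0.14 ± 0.03, and the pair shares 490 exonic bases on opposite strands. ELOVL6 was barely detected, at 0.335, 0.444 and 0.507 TPM against 0.249, 0.540 and 0.263 TPM. These groups overlap, and its fall of 0.69 ± 0.27 (adjusted p = 0.0256) was lost in 8 of 15 alternative analyses. MVK, PMVK, FADS2, DHCR7 and SQLE kept their adjusted p under 0.05 in all 15.

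The difference between the THP-1 and the H1299 response was tested for each gene as an interaction over all 12 libraries. It uses the same 12 libraries as the comparisons above and adds no independent samples. It was called for 10 of the 31 genes (32.3%), 4 with a higher THP-1 response and 6 with a lower one, against 38.7% of 14244 genes, 19.3% higher and 19.5% lower. The lower ones were led by MSMO1 (−1.49 ± 0.38, adjusted p = 0.00647), with H1299 and THP-1 responses of 1.53 and 0.06, and INSIG1 (−1.09 ± 0.30, adjusted p = 0.011), with 1.20 and 0.13. FASN (0.72 and −0.09), FDFT1 (0.54 and −0.21), SQLE (0.26 and −0.62) and ACLY (0.15 and −0.17) had the same order. MVK (−0.14 and 0.84), PMVK (−0.36 and 0.58), FADS2 (0.002 and 0.90) and EBP (−0.33 and 0.09) were the reverse. Without H1299 labelled control replicate 1, 17 genes were called, 13 of them lower, against 41.5% of 14414 genes, 22.8% higher and 18.7% lower. HMGCS1, IDI1, CYP51A1, SC5D, STARD4, ELOVL6 and SCD were the added genes.

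The wider pathway was read from a list of 51 other genes of SREBP processing, isoprenoid branches, fatty acid supply and sterol-responsive lipid genes. In H1299, 5 were higher and 3 lower, and 43 were not called, a smaller share than the 20.9% of all genes. The subunits of protein farnesyltransferase, which attach the isoprenoid to proteins, went apart, with FNTB lower (−0.84, adjusted p = 0.00381) and their shared alpha subunit FNTA higher (0.57, adjusted p = 0.0148). PCYT2, of phosphatidylethanolamine synthesis, was lower (−0.57), and MID1IP1, which promotes acetyl-CoA carboxylase polymerization, and the lysosomal cholesterol exporter NPC1 were higher (0.38 and 0.33). The 8 genes of SREBP processing and sterol-dependent degradation were not called, with values from −0.14 to 0.29. Without labelled control replicate 1, 11 of the 51 were higher and 3 lower, against 14.2% higher and 10.3% lower of 12894 genes. That library was at least 1.5-fold above its mates for 5 of 50 of these genes (10%), against 61.3% of the 31.

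In THP-1, 13 of the 50 other genes tested were higher and 18 lower, and 19 were not called, which is no larger a share than the 68.1% of all genes. By list, 2 rose and 4 fell of 8 in SREBP processing, 2 and 4 of 13 in isoprenoid branches, 5 and 8 of 21 in fatty acid supply, and 4 and 2 of 8 among other sterol-responsive genes. NPC1 fell by 1.09 (95.4 ± 3.28 to 44.1 ± 1.23 TPM, SD, n = 3, adjusted p = 2.3e-22), beside a rise of the glycerolipid acyltransferase AGPAT2 (0.65). The acyl-CoA synthetases split, with ACSL1 lower (−0.70) and ACSL4, which prefers arachidonate, higher (0.57). LBR, a sterol reductase of the inner nuclear membrane, fell by 0.58, and PGGT1B, of the enzyme that attaches the longer isoprenoid to proteins, rose by 0.67. The ubiquitin ligase RNF139, which sits in the endoplasmic reticulum, fell by 0.34.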

How the data were processed

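Per the labels' protocols, the 12 libraries are of Trizol-extracted RNA, enriched for mRNA, fragmented and converted to cDNA (NEBNext Ultra kit). The submitters' processing notes name RSEM, StringTie 1.3.1, HISAT2, Bowtie2 2.2.8 and fastp 0.18.0, with hg38. The role of each tool, the strand setting and the gene annotation were not given in the sources used here. The authors deposited 1 table of estimated counts per gene, not normalized. The same table holds the authors' TPM values per gene. Between 12% and 13.4% of the count values per library were not whole, and they were rounded. No symbol was given for 605 genes, which stayed in the fits.

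Counts were tested in R 4.3.3 with edgeR 4.0.16 (quasi-likelihood), after TMM scaling and filterByExpr, with Benjamini-Hochberg adjustment over all genes tested, and called at an adjusted p under 0.05. H1299 and THP-1 each had a fit of 6 libraries, the labelled controls of both lines another, with at least 2-fold added, and the difference of responses 1 fit of all 12. Log2 fold changes and SE come from these fits, and levels are TPM. DESeq2 1.42.0 and limma 3.58.1 gave alternatives, and the scripts were tested on simulated data. The members, the lists of other genes and the tests were chosen with earlier results of these data known. All 31 members are accounted for: those called in H1299, or in THP-1 with at least 1.5-fold, with every library, the others by range, count and fold change, and of each other list up to 2 called genes with the smallest p-values per comparison. Marker lists covered carcinoma, myeloid, and lymphoid or endothelial cells.

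Whether replicates came from separate cultures is not stated, so the p-values cover the spread among these libraries alone, which may be technical. Replicate pairs differed beyond sampling noise (chi-square per gene 10.4 to 35.1 in H1299 and 1.55 to 2.27 in THP-1), and all were counted. Positions are from GENCODE on GRCh38. Near copies by name exist for FDPS, CYP51A1, HSD17B7, SCD and FADS2, and ACAT2 overlaps TCP1 on the other strand, so their counts are uncertain. Some genes of the pathway are not reported here.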

Additional observations from a re-analysis of the deposited data

Results flagged for a closer look

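For 10 of the 31 genes the THP-1 response differed from the H1299 response in the interaction test of edgeR over all 12 libraries (adjusted p under 0.05, Benjamini-Hochberg). The THP-1 minus H1299 difference on the log2 scale was −1.49 for MSMO1, −1.09 for INSIG1, −0.90 for SQLE, −0.83 for FASN, −0.76 for FDFT1 and −0.33 for ACLY. It was 0.41 for EBP, 0.88 for FADS2, 0.93 for PMVK and 0.97 for MVK. For SQLE and FDFT1 the 3 THP-1 labelled DCBLD2 libraries lay below every THP-1 labelled control library, while in H1299 the groups overlapped through labelled control replicate 1. MSMO1, INSIG1, SQLE, FDFT1, FADS2, PMVK and MVK kept this call in all 19 alternative analyses. FASN lost it in 3 (without control replicate 3, or without replicate 2 or 3 labelled DCBLD2, of H1299), ACLY in 5 and EBP in 7 of the 19. The difference uses an H1299 arm in which labelled control replicate 1 stood apart, and its part was not tested beyond leaving it out, where the difference was −2.02 for MSMO1, −1.47 for INSIG1 and −1.14 for SQLE.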

How the results depend on the processing

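In H1299 the 4 genes called, beside 20.9% of all genes, became 7 (7 higher, 0 lower) with the replicate block, beside 14.1% of all genes. With all 12 libraries in one fit they became 10 (7 higher, 3 lower), beside 35.5% of all genes. Genes were also called lower without labelled control replicate 2 (4 higher, 2 lower, beside 18.6% of all genes) or 3 (2 higher, 2 lower, beside 12.8%). Leaving out 1 library gave 0 to 13: 13 without labelled control replicate 1, 0 without labelled DCBLD2 replicate 2 (5 higher and 0 lower at an unadjusted p under 0.05 in edgeR; 0 called by DESeq2) and 2 without its replicate 1 or 3. The median of the 31 genes then ran from −0.067 to 0.311, turning negative (−0.0149 and −0.067) without control replicate 2 or 3, and SCD from −0.24 to 0.53. In THP-1 the 22 calls, beside 68.1% of all genes, fell to 5 with all 12 libraries in one fit, beside 43.3% of all genes. They fell to 9 with the larger common dispersion of H1299 and edgeR's likelihood ratio test, beside 34.5% of all genes. The 5 with at least 1.5-fold became 3 with limma on log2(TPM + 1), and 3 to 6 when 1 library was left out, with 3 without labelled control replicate 2. The THP-1 median ran from −0.00358 to 0.0969 when 1 library was left out, being negative without labelled DCBLD2 replicate 1. The difference of responses was called for 7 to 17 genes in place of 10 when 1 library was left out, beside 32.4% to 41.5% of all genes. The 17 came without H1299 labelled control replicate 1, with the 41.5%. Between the lines ACLY turned from 0.01 to −0.30 with limma on log2(TPM + 1) and −0.31 on log2(TPM + 0.1), scales that hold the shift of −0.34 in all genes. The cause was not tested elsewhere. Same-numbered replicates did not deviate together in H1299 (correlations −0.352 to −0.0974) and did so only weakly in THP-1 (0.0279 to 0.049). The numbers are therefore not treated as pairs. Each THP-1 library correlated best with its own number, and H1299 libraries did not. The replicate block gave 22 calls in THP-1, beside 68.5% of all genes. Depth limits ELOVL6 in THP-1, which stayed at or under 0.540 TPM.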
